A study of Mus musculus with 30 samples.

Results

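The retinas of E168d2/d2 mice, in which both copies of *Crx* carried the *E168d2* frameshift, were compared with those of E168d2/+ mice, in which 1 copy carried it and the other was wild type. The comparison was made at postnatal day 10 (P10) on 3 RNA-seq libraries for each genotype, 6 of the 30 libraries of the series, and it concerned the 12061 of 12573 listed genes that reached 5 CPM (counts for each 1e6 reads on genes) in all 3 libraries of either genotype. The question addressed was which genes kept their expression where a single WT *Crx* allele remained beside the mutant allele. WT mice at P10 (3 libraries) were used to place the heterozygote, and R90W/+ and R90W/W mice at P10 (3 libraries each) served as another allele series. E168d2neo/+ mice at P10 (3 libraries), with 1 WT allele and 1 allele that carries the same mutation and a neomycin cassette, were used for single values. All groups were of the C57BL6/J strain with no treatment in the labels, and each library was made from 4 pooled whole retinas. WT mice carried 2 WT alleles, E168d2/+ 1 mutant and 1 WT allele, E168d2/d2 2 mutant alleles, R90W/+ 1 R90W and 1 WT allele, and R90W/W 2 R90W alleles. The E168d2/+ retina was not a model of the loss of 1 allele alone, since the mutant protein was made in it as well. The mutation was in the germ line, so every cell carried it, and bulk RNA cannot tell apart fewer cells of a type from less RNA per cell.

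CRX is a homeodomain transcription factor of rods and cones that binds short sites around TAATCC in photoreceptor promoters and enhancers and activates genes of phototransduction, the outer segment and the synapse together with NRL, NR2E3 and OTX2. The E168d2 protein keeps the DNA-binding homeodomain and lacks the C-terminal part that activates transcription, so it can occupy sites without activating them, and it is therefore classed as antimorphic. The R90W protein has a substitution in the homeodomain that weakens DNA binding, and it is classed as hypomorphic. At P10 mouse rods are forming their outer segments, and the genes of phototransduction are normally rising.

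The *Crx* gene lies on chromosome 7 between 16451296 and 16465317 on the minus strand in the mm9 build that the files use. The codon that the allele is named for is at 16453525 to 16453527 in coding exon 3 of 3, and it is shown here in capitals within the coding strand because the mutation removes 2 bases there. Loss of 2 bases in this codon leaves a frame that stops at codon 172, which gives a protein of 171 residues in place of 299.
*Crx* codon of E168d2: agtccagcctcaGAGgctcctttgcct

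For 4 genes on which the results turn, promoter stretches of 100 bases, which end at the base before the transcription start, are shown with the TAATCC motif on either strand (TAATCC or GGATTA) in capitals. They were taken from RefSeq on the GRCm38.p6 build and are given 5′ to 3′ on the strand of the gene. *Cngb1* at chr8:95306586-95306685 on the minus strand, a rod channel gene that fell in both steps of allele dose, held the motif at 58 and 25 bases before the start. *Lactbl1* at chr4:136622521-136622620 on the plus strand, a gene already at the homozygous level in E168d2/+, also held 2 motifs. *Pde6b* at chr5:108388273-108388372 on the plus strand, a rod gene at 79.2% of its WT level in E168d2/+, held no motif. *Krt73* at chr15:101802361-101802460 on the minus strand, which rose, held none either.
*Cngb1*: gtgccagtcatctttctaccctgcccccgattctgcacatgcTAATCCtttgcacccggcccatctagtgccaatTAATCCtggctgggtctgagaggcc
*Lactbl1*: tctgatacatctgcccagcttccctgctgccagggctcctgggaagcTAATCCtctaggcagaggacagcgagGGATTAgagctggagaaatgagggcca
*Pde6b*: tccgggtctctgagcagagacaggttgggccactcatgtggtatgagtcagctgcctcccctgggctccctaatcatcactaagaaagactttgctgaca
*Krt73*: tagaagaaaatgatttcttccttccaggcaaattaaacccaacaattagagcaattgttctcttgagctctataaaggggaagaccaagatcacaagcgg

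The WT, E168d2/+ and E168d2/d2 libraries held 13.9 to 21.97 times 1e6 reads on genes, so that 5 CPM stood for 69.5 to 110 reads and a floor of 3 reads for 0.137 to 0.216 CPM, counting error only. The R90W libraries held 16.6 to 26.2 times 1e6 reads. The 3 libraries of a genotype are separate pools, and p-values measure the spread between these pools. In the E168d2/d2 libraries the sex-linked genes went against labels that give 2 male and 2 female retinas to each pool. *Xist*, the X-inactivation RNA, was at 1799, 3737 and 2.96 CPM in replicates A, B and C, and the Y-linked *Ddx3y* was at 43.9, 0 and 78.7 CPM. Replicates B and C thus stood apart. Without replicate B, 165 of the reported lower genes and 99 of the reported higher genes were called again. Without replicate C these counts were 164 and 102. With both left out E168d2/d2 had 1 library. E168d2/+ replicate C held lens RNA, with *Cryaa* at 1562 CPM against 0.901 and 1.45 CPM in replicates A and B, and it was the lowest of the 3 E168d2/+ libraries for 18 of 20 rod phototransduction genes. It was also the lowest for 45.5% of all genes tested and for 122 of the genes lower in E168d2/d2. Without it 193 genes were lower and 114 higher. *Crx* itself was at 1539, 1601 and 1481 CPM in WT, at 2175, 2095 and 2277 CPM in E168d2/+, and at 2470, 2324 and 2301 CPM in E168d2/d2. Both mutant genotypes lay above WT. The E168d2/d2 level differed from the E168d2/+ level by 0.12 on the log2 scale (95% interval -0.03 to 0.27, FDR 0.284), and these reads do not separate the mutant RNA from the WT RNA.

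Between the genotypes 274 of the 12061 genes tested were called, of which 106 were higher in E168d2/d2 than in E168d2/+ (0.879% of genes tested) and the others lower (1.39%), at a 2-fold change and an FDR of 0.05 in limma on log2(CPM + 0.1). The largest falls were in rod genes: 8 of the 10 genes with the largest falls encode proteins of phototransduction or of the retinoid cycle. On the log2 scale the lower genes had a median change of -1.53 and the higher genes of 1.36, against 0.05 for all genes tested. Falls reached further than rises, with 49 lower genes against 17 higher genes past 4-fold and 17 against 3 past 16-fold. The 6 libraries did not overlap between genotypes for 167 lower genes, all but 1, and for all 106 higher genes, against 35.2% of all genes tested. Of the 178 genes that passed the 5 CPM filter through E168d2/+ alone, 54 were called lower. Of the 216 that passed it through E168d2/d2 alone, 20 were called higher. For such genes the filter itself leaned toward these directions. With no fold limit, 902 genes were lower and 1123 higher at the same FDR (7.48% and 9.31%), 2025 in all, and without E168d2/d2 replicate C the total was 1290. *Vax2os1* (21.3 CPM in E168d2/+ and 10.7 CPM in E168d2/d2) and *Dusp1* (8.34 and 16.8 CPM) were the called genes nearest to the fold limit, and *Klhl18* (-0.99) and *Trmt61b* (0.99) lay just outside it.

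**Figure D1:**
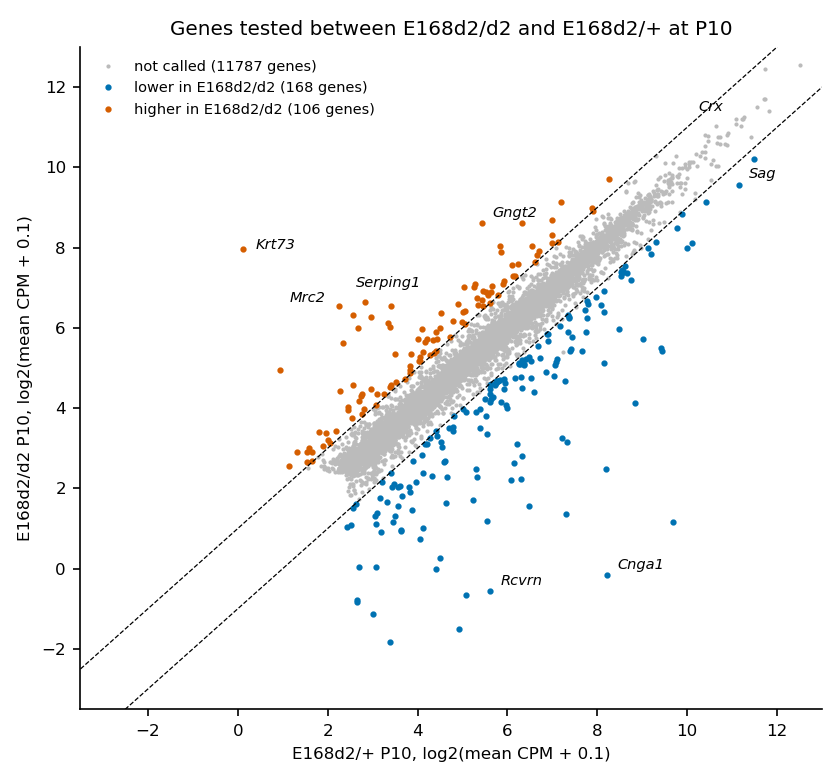
Each point is a gene, plotted as the log2 of its mean CPM plus 0.1 in E168d2/+ (horizontal axis) and E168d2/d2 (vertical axis) retina at P10, with 3 libraries per genotype; dashed lines mark 2-fold changes, blue points the lower genes and orange points the 106 higher genes. *Cnga1* and *Rcvrn* fall far below the lower dashed line and *Krt73* lies far above the upper line, whereas *Crx* lies between the lines.

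Rod phototransduction fell as a group. Of its 20 genes 19 were tested, and 18 were lower in E168d2/d2 than in E168d2/+ (94.7%, against 1.39% of all genes tested). None was higher, and the median change was -3.30 against 0.05 for all genes. The remaining tested gene, *Pdc*, which encodes the transducin-binding protein phosducin, had a log2 difference of -0.86 (FDR 3.66e-05), short of the fold limit. The summed level of the list was 19313 to 19681 CPM in WT, 10402 to 12859 CPM in E168d2/+ and 3571 to 3683 CPM in E168d2/d2. The median gene of the list stood at 52.99% of WT in E168d2/+ and at 4.92% of WT in E168d2/d2.

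*Rcvrn*, which encodes the calcium sensor recoverin, was the rod gene most reduced in the heterozygote: it was at 550, 547 and 565 CPM in WT, 60.7, 53.5 and 33.4 CPM in E168d2/+ and 0.707, 0.574 and 0.455 CPM in E168d2/d2. No library of one genotype reached the range of another.

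The genes of the cyclic nucleotide-gated channel, which light closes, were nearly lost in E168d2/d2. *Cnga1*, the gene of its alpha subunit, was at 417, 422 and 390 CPM in WT, at 331, 315 and 251 CPM in E168d2/+ and at 1.03, 0.861 and 0.501 CPM in E168d2/d2. The heterozygote retained 73.1% of the WT level, and the homozygote 0.267% of the heterozygote (log2 change -8.42, SE 0.21, FDR 6.49e-09), the largest fall of any gene tested. *Cngb1*, which encodes the beta subunit, was at 171, 162 and 141 CPM in E168d2/+, 49.4% of WT, and at 2.56, 1.67 and 3.23 CPM in E168d2/d2.

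The rod phosphodiesterase, which breaks down cyclic GMP on signal from transducin, fell in all 3 of its subunit genes. The inhibitory gamma subunit gene *Pde6g* was at 520, 459 and 384 CPM in E168d2/+ and at 16.8, 17.1 and 18.2 CPM in E168d2/d2, and the catalytic *Pde6a* was at 359, 315 and 200 CPM and at 5.66, 4.25 and 6.56 CPM. *Pde6b*, the other catalytic subunit gene, was at 1151, 1104 and 1045 CPM in E168d2/+ and kept 272, 277 and 284 CPM in E168d2/d2. *Pde6a*, *Pde6g* and *Pde6b* fell by 5.68, 4.69 and 1.98 on the log2 scale, and E168d2/+ held 52.3%, 53.7% and 79.2% of their WT levels.

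Transducin couples the pigment to the phosphodiesterase. *Gnat1*, its rod alpha subunit gene, was at 716, 666 and 626 CPM in WT, 240, 191 and 73.5 CPM in E168d2/+ and 46.6, 42.6 and 39.5 CPM in E168d2/d2. Most of its reduction was thus reached in the heterozygote, whose 3 libraries were far apart, and the further change was -1.81 (SE 0.34, FDR 0.00486); with replicate A as the only E168d2/d2 library it was -1.68 and not called (FDR 0.171). The beta subunit gene *Gnb1* was at 3014, 2955 and 2618 CPM in E168d2/+, 97.3% of WT, and at 1186, 1196 and 1161 CPM in E168d2/d2. The gamma subunit gene *Gngt1* (89.1% of WT in E168d2/+) and the rod arrestin gene *Sag* (94.9%) likewise fell with the second mutant allele, by 1.29 and 1.58 on the log2 scale.

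Guanylate cyclases and their activators, which restore cyclic GMP after light, were reduced at both steps. *Gucy2e* and *Gucy2f* stood at 46.4% and 37.2% of WT in E168d2/+, and at 6.4004% and 4.66% of the heterozygote in E168d2/d2. *Guca1a* stood at 40.2% of WT and then at 15.2% of the heterozygote, and *Guca1b* was below the filter in both genotypes, at 3.89, 3.53 and 3.09 CPM in E168d2/+ and 1.20, 1.72 and 0.865 CPM in E168d2/d2. *Grk1*, a receptor kinase gene of photoreceptors, was at 560, 524 and 472 CPM in E168d2/+ and 53.3, 49.7 and 54.7 CPM in E168d2/d2 (log2 change -3.30). Of the complex that ends the transducin signal, *Rgs9* stood at 86.5% of WT and *Rgs9bp* at 97.4% in E168d2/+, and they fell by 1.12 and 1.10 on the log2 scale in E168d2/d2. With E168d2/d2 replicate A alone these values were -0.91 and -0.90, short of the fold limit.

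**Figure D2:**
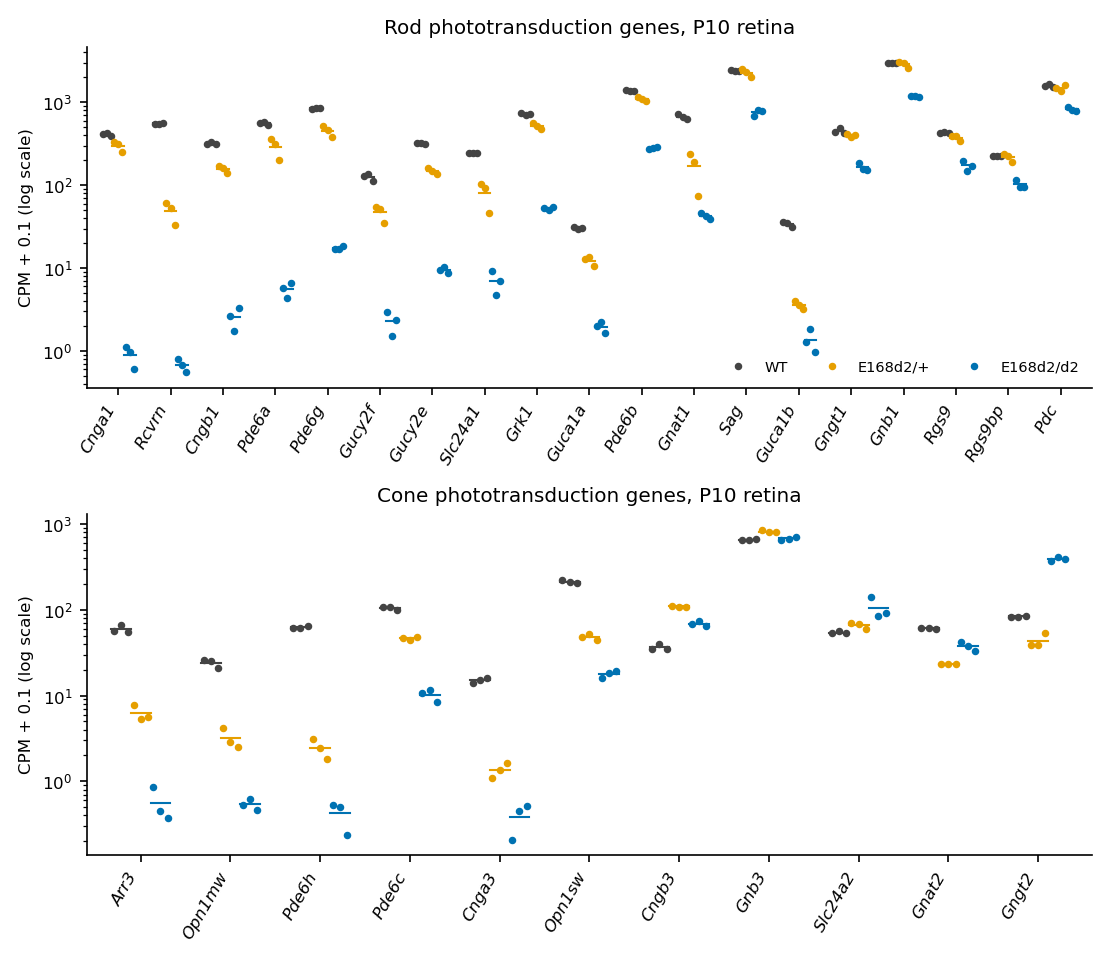
Points give the CPM plus 0.1 (log axis) of each library and short lines the group means, for 3 WT (black), 3 E168d2/+ (orange) and 3 E168d2/d2 (blue) libraries at P10, with 19 rod genes above and 11 cone genes below. *Cnga1* and *Rcvrn* are under 3 CPM in every E168d2/d2 library, *Sag*, *Gnb1* and *Rgs9bp* sit at the WT level in E168d2/+, and *Gngt2* is at 375 to 409 CPM in E168d2/d2, above its WT libraries.

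Most cone phototransduction genes were already low in E168d2/+. Of the 11 cone genes, 7 were lower in E168d2/+ than in WT, against 1.09% of all genes tested there. Only 8 reached the filter for the comparison of mutants. Of these, 3 were lower in E168d2/d2 and 1 was higher (37.5% and 12.5%, against 1.39% and 0.879% of all genes tested). The summed level was 1358 to 1373 CPM in WT, 1143 to 1208 CPM in E168d2/+ and 1310 to 1320 CPM in E168d2/d2. Most of that sum was *Gnb3*, with means of 657, 816 and 682 CPM in WT, E168d2/+ and E168d2/d2. The median change of the list was -0.46. *Arr3*, the cone arrestin gene, was at 7.73, 5.23 and 5.55 CPM in E168d2/+ and 0.762, 0.345 and 0.273 CPM in E168d2/d2, and the S-opsin gene *Opn1sw* was at 48.3, 52.2 and 44.9 CPM and 15.8, 17.97 and 19.3 CPM. *Arr3*, *Opn1sw* and the cone phosphodiesterase gene *Pde6c* fell by 3.56, 1.45 and 2.20 on the log2 scale, and E168d2/+ held 10.5%, 22.9% and 44.5% of their WT levels. *Opn1mw*, *Pde6h* and *Cnga3*, which encode M-opsin, a phosphodiesterase subunit and a channel subunit, had means of 3.08, 2.34 and 1.27 CPM in E168d2/+ and of 0.439, 0.325 and 0.288 CPM in E168d2/d2, and they were not tested.

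The cone transducin genes did not follow this order. *Gngt2*, the cone gamma subunit gene, was at 82.4, 82.6 and 85.6 CPM in WT, 38.6, 38.8 and 52.8 CPM in E168d2/+ and 375, 409 and 390 CPM in E168d2/d2. It was the only one of the 8 tested cone genes past the threshold upward (log2 change 3.18, SE 0.11, FDR 4.66e-08), and its exons overlap those of *Abi3* on the other strand, so reads of the pair cannot be told apart if counting ignored strand. *Gnat2*, the cone alpha subunit gene, was at 60.4, 23.2 and 37.5 CPM on average in WT, E168d2/+ and E168d2/d2 (change between the mutants 0.68, FDR 0.000475, under the fold limit). *Cngb3*, a cone channel subunit gene, was higher in E168d2/+ (mean 109 CPM) than in WT (36.7 CPM) and stood at 68.95 CPM in E168d2/d2.

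Most genes of outer segment structure stood near the WT level in E168d2/+. The median gene stood at 86.3% of WT in E168d2/+, where 1 of 13 tested genes was lower than WT. Against E168d2/+, 7 of 12 were lower in E168d2/d2 (58.3%, against 1.39% of all genes tested) and none higher, with a median change of -1.36.

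Among the members that fell with the second mutant allele, *Prph2*, *Tulp1*, *Impg1* and *Impg2* had a heterozygote at 63.1% to 89.9% of WT. *Prph2*, the gene of the disc rim protein peripherin, was at 1140, 1055 and 879 CPM in E168d2/+ and 268, 254 and 236 CPM in E168d2/d2. *Tulp1*, which encodes a protein needed for transport to the outer segment, was at 721, 712 and 605 CPM and then at 35.4, 47.7 and 51.5 CPM, a log2 change of -3.93. The interphotoreceptor matrix genes *Impg1* and *Impg2* fell by 2.33 and 1.16, and the ciliary genes *Rp1l1* and *Fam161a* by 1.55 and 1.97. *Rom1*, *Prom1*, *Rp1* and *Cdhr1* had differences of -0.94, -0.96, -0.65 and -0.60, each short of the fold limit.

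Among the 7 genes of the photoreceptor visual cycle, which recycles the chromophore, the retinol dehydrogenase genes *Rdh8* and *Rdh12* were lower (28.6%, against 1.39% of all genes tested). The median of the list was -0.52. *Rdh8* was at 34.8, 32.8 and 23.0 CPM in E168d2/+ and 0.109, 0.287 and 0.364 CPM in E168d2/d2, at or near the floor of 3 reads, and *Rdh12* was at 105, 95.3 and 68.4 CPM and then 3.05, 2.93 and 2.55 CPM. *Rbp3*, which encodes the retinoid carrier of the subretinal space, and *Abca4*, the disc transporter gene, had differences of -0.68 and -0.52. Between the mutants the list thus held 2 genes nearly lost in E168d2/d2 and 5 that stayed within 2-fold. Against WT, 4 of the 7 genes were lower in E168d2/d2, where 3.24% of all genes tested were.

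At the ribbon synapse, 7 of 18 genes were lower in E168d2/d2 (38.9%, against 1.39% of all genes tested) and none was higher, with a median of -0.72. *Mpp4*, which encodes a scaffold of the photoreceptor terminal, was at 180, 173 and 131 CPM in E168d2/+ and 10.4, 6.83 and 9.33 CPM in E168d2/d2 (log2 change -4.18). *Cabp4*, a calcium channel regulator gene, *Lrit1*, an adhesion protein gene, and *Slc17a7*, the gene of the vesicular glutamate transporter, changed by -2.68, -2.61 and -1.35. The active zone genes *Bsn* and *Pclo* and the ribbon gene *Ctbp2* were at 0.16, 0.12 and -0.36. *Elfn1*, which encodes a transsynaptic partner of bipolar cell receptors, stood at 26.5% of WT in E168d2/+ with a difference of -0.88 between the mutants.

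Cilium and BBSome genes, which serve the connecting cilium, held 4 lower genes of 29 (*Rpgrip1*, *Bbs5*, *Tub* and *Bbs7*), 13.8% against 1.39% of all genes tested. None was higher, and the median was -0.31. Those 4 genes changed by -1.27, -1.15, -1.13 and -1.09. Of 21 genes of glucose and energy metabolism 3 were lower (14.3%, against 1.39% of all genes tested), and the median of the list was -0.19. They were *Hk2*, the hexokinase gene, *Ckmt1*, a mitochondrial creatine kinase gene, and *Ppara*, a lipid-sensing nuclear receptor gene. Their log2 changes were -1.53, -1.12 and -3.04. *Ppara* was at 9.63, 8.83 and 6.51 CPM in E168d2/+ and 1.20, 0.976 and 0.637 CPM in E168d2/d2.

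Of 18 photoreceptor transcription factors tested, 2 were lower (11.1%) and 1 was higher (5.56%), with a median of -0.12. Over all genes tested these shares were 1.39% and 0.879%. *Nrl*, which specifies rods, was at 1167, 1148 and 1129 CPM in E168d2/+ and 618, 681 and 683 CPM in E168d2/d2, a difference of -0.80 that was short of the fold limit. Its target *Nr2e3* had a difference of -0.40 and *Otx2* of 0.18 (FDR 0.119). *Esrrb*, an orphan nuclear receptor gene of rods, was at 50.5, 47.0 and 22.4 CPM and 4.08, 4.42 and 5.74 CPM (log2 change -2.97). *Pias3*, a SUMO ligase gene, fell by 1.75. *Rxrg*, the gene of a retinoid receptor of cones, rose at both steps, from 13.98, 11.003 and 13.8 CPM in WT through 33.0, 33.7 and 29.7 CPM to 86.5, 82.9 and 83.4 CPM.

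**Figure D3:**
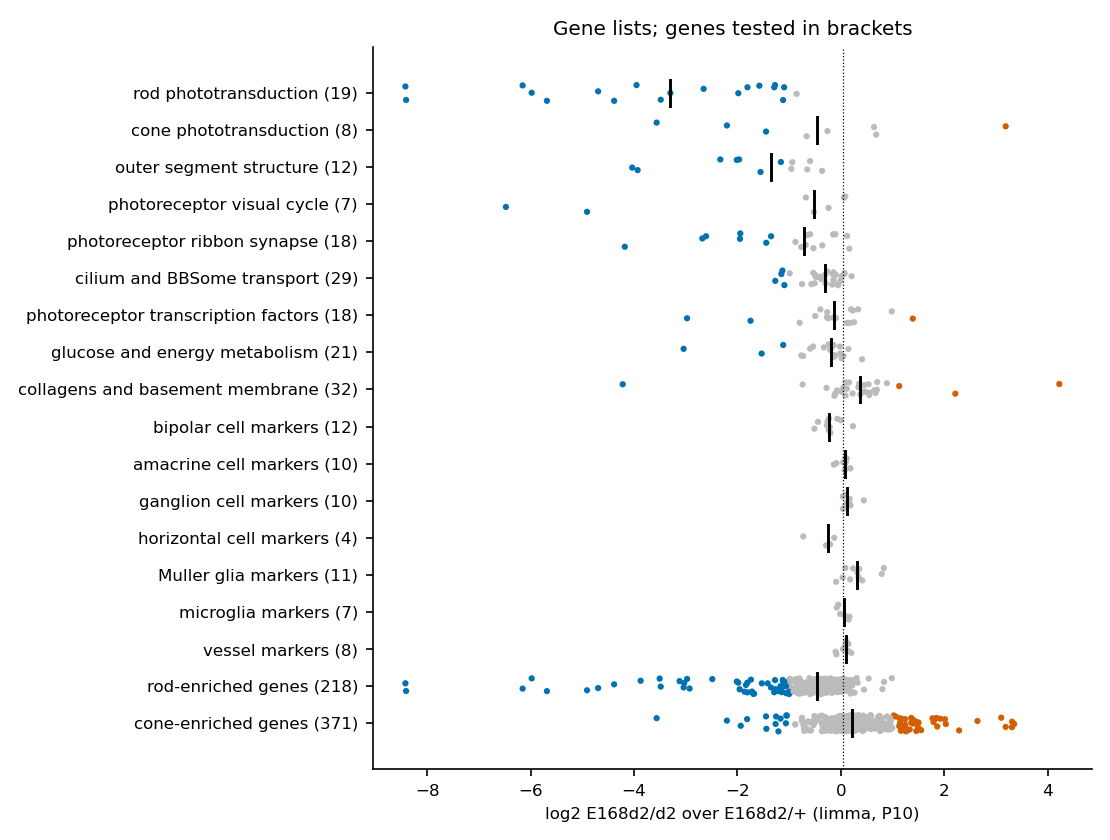
Each row is a list of genes with the number tested in brackets, each point a gene at its log2 E168d2/d2 over E168d2/+ value from limma at P10, blue for lower, orange for higher and grey for not called; black bars are list medians and the dotted line is the median of all genes tested. Rod phototransduction has its median at -3.30, the medians of the inner retinal marker lists lie between -0.25 and 0.32, and cone-enriched genes extend to both sides.

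The broad lists of rod-enriched and cone-enriched genes, which the study drew from a published comparison of WT and Nrl-/- retinas, had medians on opposite sides of that of all genes. Of 218 rod-enriched genes 50 were lower (22.9%) and none was higher, with a median of -0.45. Of 371 cone-enriched genes 13 were lower (3.5%) and 42 higher (11.3%), with a median of 0.22. Over all genes tested 1.39% were lower and 0.879% higher. In E168d2/+ the median rod-enriched gene stood at 79.7% of WT and the median cone-enriched gene at 105%.

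None of the markers of other retinal cells was called: among 12 bipolar, 10 amacrine, 10 ganglion, 4 horizontal, 11 Müller glia, 7 microglia and 8 vessel markers the count was 0 in limma, under each alternative as well, and their medians were -0.23, 0.08, 0.11, -0.25, 0.32, 0.06 and 0.09. At the FDR alone 4 bipolar markers and 1 horizontal marker were lower, where 7.48% of all genes tested were. At the same limit 1 ganglion and 2 Müller markers were higher, where 9.31% of all genes were. The summed bipolar markers ran from 2674 to 2924 CPM in E168d2/+ and from 2354 to 2505 CPM in E168d2/d2. The summed Müller markers ran from 2534 to 3337 CPM in E168d2/+ and from 3371 to 4565 CPM in E168d2/d2. The glutamine synthetase gene *Glul* was at 1576, 840 and 902 CPM in E168d2/d2. Pigment epithelium and melanocyte markers summed to 156 to 389 CPM and 235 to 357 CPM, blood markers to 104 to 130 CPM and 115 to 364 CPM, and lens markers to 6.73 to 3530 CPM and 5.96 to 156 CPM. No lens marker reached the filter. With replicate A as the only E168d2/d2 library 4 of 5 blood markers, all globin genes, were called higher, and the part of these tissues in the results was not tested. Of 7 cell cycle genes 1 was lower (14.3%, against 1.39% of all genes tested). It was *Ccna2*, the cyclin A2 gene, at 22.5, 21.1 and 24.5 CPM in E168d2/+, as in WT. In E168d2/d2 it was at 8.60, 8.33 and 9.61 CPM. None of 9 p53 target and cell death genes, 5 glial reactivity genes, 4 heat shock genes or 12 circadian clock genes was called. Their medians were 0.17, 0.24, 0.06 and 0.17. Of 6 immediate early genes 1 (*Dusp1*) was higher (16.7%, against 0.879% of all genes tested), a call at the fold limit. That call was lost without E168d2/d2 replicate B or C or E168d2/+ replicate A or B (log2 differences 0.93 to 0.99). It was also lost with 1 CPM added and under both other scalings.

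The 10 largest rises, *Gngt2* among them, were headed by *Krt73*. *Krt73*, a hair follicle keratin gene, was at 0, 0.216 and 0.0584 CPM in WT, 0.664, 0.946 and 1.33 CPM in E168d2/+ and 290, 238 and 228 CPM in E168d2/d2 (log2 change 7.90, SE 0.20, FDR 6.49e-09). It was near the floor in WT and became abundant in E168d2/d2 alone of these genotypes. *Serping1*, the C1 inhibitor gene of the complement system, was at 6.83, 6.33 and 5.43 CPM in WT, 7.16, 6.56 and 7.20 CPM in E168d2/+ and 100.9, 95.6 and 103 CPM in E168d2/d2, a rise of 3.82. *Mrc2*, which encodes a collagen receptor, was at 5.69, 4.98 and 3.41 CPM in E168d2/+ and 143, 61.2 and 76.3 CPM in E168d2/d2, with replicate A highest.

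Other large rises were in regulators. *Nhlh1* and *Insm2*, which encode a helix-loop-helix and a zinc finger factor of developing neurons, changed by 3.75 and 3.35, and *Myocd*, a coactivator gene of muscle, rose from 10.8, 10.3 and 10.5 CPM to 127, 72.4 and 81.5 CPM. *A930009A15Rik*, *Klhl33* and *A930018M24Rik* rose by 4.02, 3.31 and 3.31. Of 32 collagen and basement membrane genes 3 were higher (9.38%) and 1 was lower (3.12%), with a median of 0.36. Over all genes tested these shares were 0.879% and 1.39%. *Col16a1*, a fibril-associated collagen gene, was at 5.08, 4.17 and 4.20 CPM in WT, 58.9, 53.2 and 59.3 CPM in E168d2/+ and 267, 258 and 268 CPM in E168d2/d2. *Col5a3*, by contrast, was at 26.0, 23.6 and 17.5 CPM in E168d2/+ and 1.20, 1.03 and 1.05 CPM in E168d2/d2.

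The place of the heterozygote between WT and the homozygote was described next, using comparisons with WT that share libraries with each other and with the comparison of the mutants. Over the genes lower in E168d2/d2 than in E168d2/+ the E168d2/+ level had a median of 69.5% of WT (quartiles 49.5% and 89.1%). It was under 25% for 9 genes, 25% to 50% for 36, 50% to 75% for 51, 75% to 125% for 62 and above that for 10. Of these genes, 46 were called lower and 5 higher in E168d2/+ than in WT. Over the 106 higher genes the median was 114% of WT (quartiles 92.3% and 133%), and 65 stood between 75% and 125%. *Pcdh15* was among the lower genes above the WT level in E168d2/+, with means of 199, 285 and 122 CPM in WT, E168d2/+ and E168d2/d2, and it was picked after its values were seen.

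Against WT, 394 genes were lower in E168d2/d2 (3.24% of 12171 tested) and 277 higher (2.28%), and 131 genes were lower in E168d2/+ (1.09%) and 60 higher (0.498%). The 331 lower genes that could be placed were sorted by their heterozygote. They counted as held where the 95% interval of log2 E168d2/+ over WT lay above -0.5, as graded where both steps were called lower, and as already at the homozygous level where E168d2/+ was called lower than WT and the interval of log2 E168d2/d2 over E168d2/+ lay within 0.5 of 0. By these limits 75 genes (22.7%) were held, 46 (13.9%) were graded and 6 (1.81%) were at the homozygous level. The other 204 (61.6%) met none of them and had a median of 63.1% of WT in E168d2/+. The held genes ran from 75.9% to 149% of WT in E168d2/+, with a median of 89.1%, and 63 of the 75 were below WT. The graded genes ran from 8.88% to 50.8%, with a median of 40.3%. Without E168d2/+ replicate C 104 genes counted as held, and 46 as graded.

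Of the 75 held genes 51 were also called lower in E168d2/d2 than in E168d2/+. Among the held genes with the largest falls against WT were *Nxnl2*, *Impg1*, *Pde6b*, *1110018N20Rik* and *Cckbr*. *Nxnl2*, which encodes a thioredoxin-like cone viability factor, was at 84.8, 82.6 and 81.4 CPM in WT, 76.0, 73.7 and 61.9 CPM in E168d2/+ and 6.37, 6.26 and 5.55 CPM in E168d2/d2. Its relative *Nxnl1* was at 178, 187 and 172 CPM, at 78.1, 74.9 and 69.6 CPM and at 7.67, 8.96 and 8.74 CPM, and so counted as graded. *Cckbr*, a cholecystokinin receptor gene, held 88.3% of WT and then fell by 1.94 on the log2 scale. Of the 20 rod phototransduction genes 6 were held, 8 were graded and 4 met none of the limits. Transducin alpha, recoverin, both guanylate cyclases, *Cngb1*, *Slc24a1* and *Guca1a* were among the graded genes, and *Sag*, *Gnb1*, *Gngt1*, *Pde6b*, *Rgs9* and *Rgs9bp* the held ones.

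**Figure D4:**
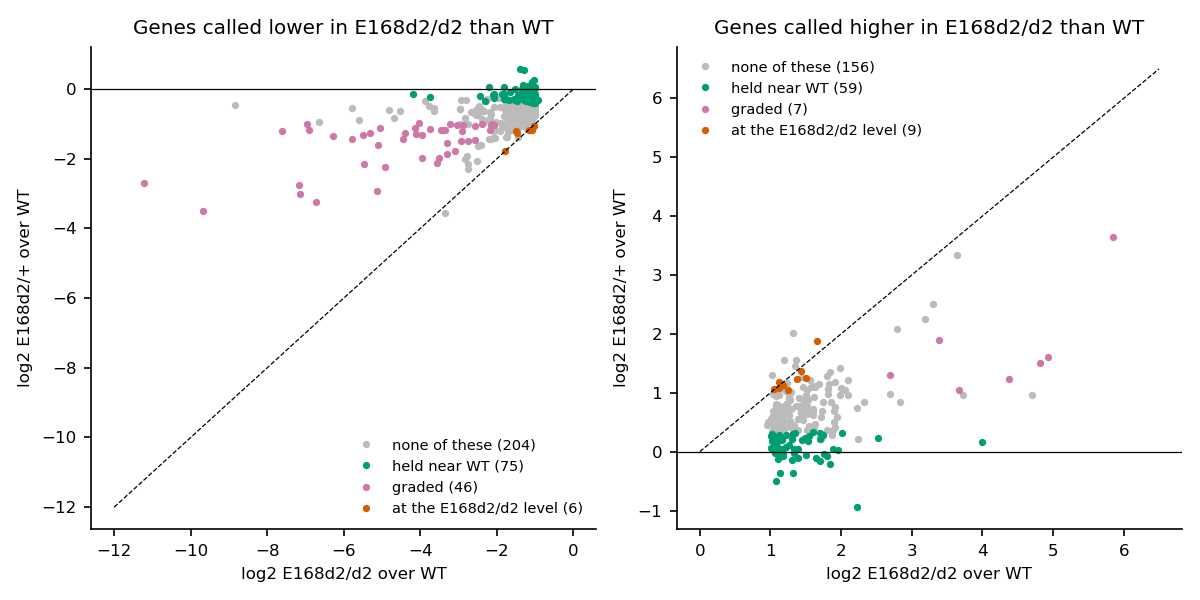
Each point is a gene called lower (left) or higher (right) in E168d2/d2 than in WT at P10 and tested in all 3 comparisons, plotted as log2 E168d2/d2 over WT (horizontal) against log2 E168d2/+ over WT (vertical); the dashed line marks equal changes and the solid line no change in E168d2/+. Most of the 75 and 59 held genes lie near the solid line, with *Gngt2* below it on the right, the 46 and 7 graded genes lie between the lines, and the 6 and 9 genes at the E168d2/d2 level lie on the dashed line.

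The 6 lower genes already at the homozygous level in E168d2/+ were *Plekhg3*, *Slc38a3*, *Lactbl1*, *Tmbim1*, *Zfyve28* and *Rilpl2*. *Plekhg3*, which encodes an exchange factor for small GTPases, was at 37.5, 37.5 and 34.2 CPM in WT, 10.4, 11.2 and 10.2 CPM in E168d2/+ and 9.74, 11.4 and 10.4 CPM in E168d2/d2. The mutants overlapped, and the 95% interval of their log2 difference was -0.25 to 0.20. *Slc38a3*, a glutamine transporter gene, had means of 289, 125 and 102 CPM in WT, E168d2/+ and E168d2/d2, and *Lactbl1* had means of 180, 75.6 and 64.6 CPM. The mutants did differ in *Slc38a3*, with a log2 difference of -0.29 (95% interval -0.47 to -0.11, FDR 0.0355) and libraries that did not overlap. Among the 9 higher genes of this kind, *H6pd*, which encodes an NADPH-producing enzyme of the endoplasmic reticulum, had means of 20.6, 53.7 and 55.8 CPM, and *Rab3il1*, the gene of an exchange factor for Rab3, was at 10.5, 9.71 and 11.1 CPM in WT, 23.5, 24.2 and 20.8 CPM in E168d2/+ and 23.9, 22.5 and 24.99 CPM in E168d2/d2.

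Of the 231 higher genes that could be placed, 59 (25.5%) were held near WT, 7 (3.03%) were graded, 9 (3.90%) were at the homozygous level and 156 (67.5%) met none of the limits. Of the 59 held genes 42 were also higher in E168d2/d2 than in E168d2/+. After *Serping1*, *Ece1*, the gene of the endothelin-converting enzyme, was at 67.4, 64.7 and 72.04 CPM in WT, 78.3, 75.6 and 86.8 CPM in E168d2/+ and 395, 399 and 378 CPM in E168d2/d2. *Igfbp5*, which encodes a binding protein of insulin-like growth factors, was at 127, 135 and 122 CPM in E168d2/+ and 467, 368 and 404 CPM in E168d2/d2. *Gngt2* met the limit for held genes although its E168d2/+ level was 52.0% of WT, because the limit bounds only the rise.

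Between the doses 7 genes turned, being called one way in E168d2/+ against WT and the other way in E168d2/d2 against E168d2/+. The E168d2/+ libraries enter both of these comparisons. *Rtn4rl2*, a Nogo receptor family gene, was low in E168d2/+ alone, at 46.7, 41.6 and 45.6 CPM, at 21.1, 20.7 and 16.3 CPM and at 40.7, 41.1 and 39.0 CPM. *Aim2*, which encodes a cytosolic DNA sensor, was at 3.95, 4.96 and 4.85 CPM, at 14.5, 14.1 and 13.3 CPM and at 4.41, 3.45 and 4.097 CPM. Without E168d2/+ replicate C the rise of *Rtn4rl2* between the mutants was 0.94, under the fold limit. In both of these genes the heterozygote stood apart from WT and from the homozygote.

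Like *Aim2*, *Apobec2* and *Atp13a4* were high in E168d2/+ alone, at means of 13.6, 27.6 and 10.7 CPM and of 1.03, 6.18 and 0.486 CPM in WT, E168d2/+ and E168d2/d2. *Apobec2* was close to the fold limit in E168d2/+ against WT (log2 change 1.02), and it no longer turned without WT replicate C, with 1 CPM added or with median scaling. *Arid3c* was low in E168d2/+, at 9.09, 10.6 and 9.63 CPM, at 2.23, 2.96 and 3.95 CPM and at 7.45, 8.15 and 6.69 CPM. *Dnahc9*, an axonemal dynein gene, was at 35.5, 31.2 and 15.6 CPM in E168d2/+ and 16.4, 8.33 and 9.74 CPM in E168d2/d2 (log2 change -1.22, FDR 0.0231). Its libraries overlapped, the only such case among the called genes, and its call was lost without any 1 of E168d2/d2 replicates B and C and E168d2/+ replicates A and B, with changes of -1.14 to -0.997 (FDR 0.0693 to 0.0934). In the E168d2neo/+ retina, which carries the same mutation with an intronic neomycin cassette that lowers the mutant protein, *Atp13a4* had a mean of 5.77 CPM, above WT, whereas *Dnahc9* had a mean of 11.5 CPM, below its WT mean of 12.8 CPM.

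**Figure D5:**
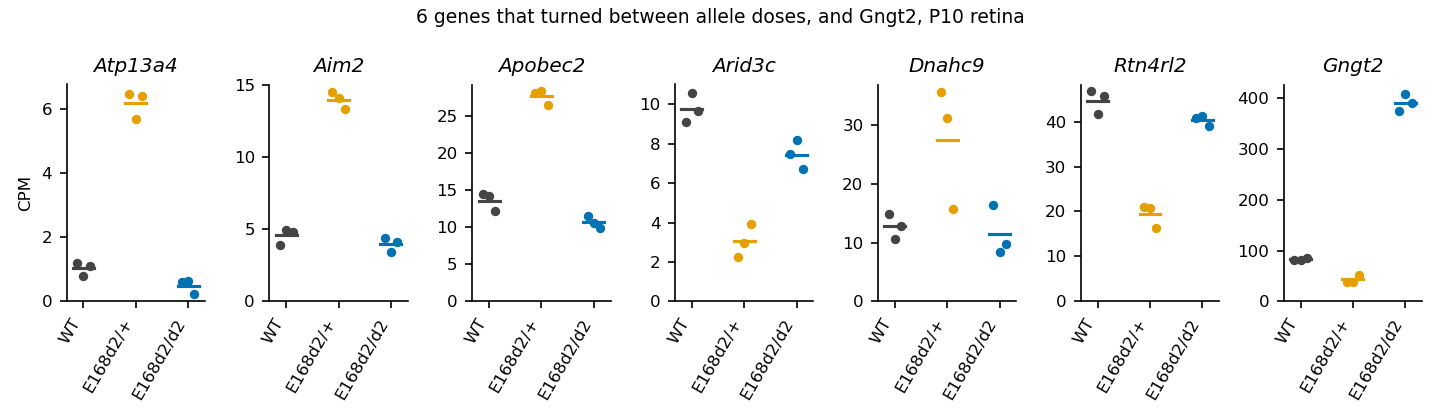
CPM of each library (points) and group means (lines) for 3 WT, 3 E168d2/+ and 3 E168d2/d2 libraries at P10, each panel on its own axis from 0, for 6 genes that turned between doses and for *Gngt2*, which was not called in E168d2/+ against WT. *Aim2*, *Apobec2* and *Atp13a4* are highest in E168d2/+, *Rtn4rl2* and *Arid3c* lowest there, and *Dnahc9* shows the widest spread between libraries.

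The R90W series gave the same step, from 1 to 2 mutant alleles, with a different mutant protein. It shares no library with the E168d2 step. In R90W/W against R90W/+, 95 genes were lower (0.794% of 11959 tested) and 33 higher (0.276%). Of these, 54 were lower in both steps, 32.1% of the E168d2 list and 56.8% of the R90W list, and 15 were higher in both, 14.2% and 45.5%. No gene was called in opposite directions. The genes lower with E168d2 dose had a median R90W change of -0.75 and the genes higher a median of 0.48, against 0.04 for all genes, and across the 11839 genes tested in both the changes had a Pearson r of 0.642, a description across genes, which are not independent replicates.

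The sizes of the steps differed for 171 genes by the interaction term, 103 lower (0.846% of 12181) and 68 higher (0.558%) with E168d2 dose. They included 14 of the 20 rod phototransduction genes on the lower side and 1 on the higher side. *Cnga1* had means of 425 and 241 CPM in R90W/+ and R90W/W, a log2 change of -0.82 against -8.42 with E168d2. *Gnat1* was the exception on the higher side: its R90W means were 776 and 58.8 CPM, a change of -3.67, while E168d2/+ had already come down to 168.2 CPM. In R90W/+ replicate C *Cryaa* was at 604 CPM, so lens RNA was present in that series too.

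Of the genes that rose with E168d2 dose, *Krt73* had means of 0.128 and 0.210 CPM in R90W/+ and R90W/W, near the floor. *Mrc2* had means of 5.23 and 5.26 CPM there and *Serping1* of 6.89 and 8.13 CPM. The interaction was called for all 3, at 7.51, 4.23 and 3.58. *Krt73* and *Mrc2* passed the 5 CPM filter only through E168d2/d2, where they are high, so the filter itself leaned toward this direction for them. *Ccdc136*, by contrast, rose in both series, from 156 to 803 CPM with R90W and from 147 to 559 CPM with E168d2, and *Col16a1* had R90W means of 7.70 and 100 CPM. *Ccna2* had means of 28.2 and 29.3 CPM in R90W/+ and R90W/W, an interaction of -1.40. The cone genes with a higher interaction were *Opn1mw*, *Gnat2* and *Gngt2*, at 2.08, 1.65 and 1.54. *Opn1mw* fell in both series, by 4.62 with R90W and from 3.08 to 0.439 CPM with E168d2. *Gnat2* changed by 0.68 with E168d2 and by -0.97 with R90W, and *Gngt2* rose by 3.18 and 1.65.

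The TAATCC motif, searched on both strands in the 250 bases before the start, was used to describe the promoters. It was present in 7.21% of the 27025 RefSeq promoters and in 6.51% of the 8560 tested genes with a promoter in that table. Among genes lower in E168d2/d2 than in E168d2/+ it was present in 29 of 111 (26.1%), and among genes higher in 2 of 66 (3.03%). Of the genes lower than in WT, 13 of 31 graded genes (41.9%) and 2 of 4 at the homozygous level (50%) had it. So did 7 of 50 held genes (14%) and 20 of 137 genes that met none of the limits (14.6%). Of the genes higher than in WT, 2 of 36 held genes (5.56%) and 10 of 100 that met none of the limits (10%) had it. It was present in 0 of 5 graded genes and 0 of 4 at the homozygous level there. Rod phototransduction genes held it in 7 of 13 promoters and ribbon synapse genes in 6 of 13, against 1 of 9 for outer segment structure and 1 of 4 for cone phototransduction. A match to these 6 letters is a description and not a site shown to be bound, and further sites outside the 250 bases were not searched.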

How the data were processed

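RNA of whole mouse retina, taken by poly(A) selection in the study's methods and with an mRNA kit and rRNA depletion in the labels, was read as single reads and, per the labels and the study's methods, was aligned to mm9 with TopHat2 (2.0.5) and counted with HTSeq (0.6.1p1); the strand setting is not given in the sources used here. The authors deposited 1 table of CPM, that is counts for each 1e6 reads of a library, for 12573 genes and 30 libraries. Its columns of edgeR (3.6.8) comparisons, which hold fold changes, p-values and FDR of each mutant over WT, were not used. Total reads on genes were taken from the step between CPM values, and the floor of 3 reads covers counting error only.

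Values were tested as log2(CPM + 0.1) with limma (3.58.1 in R 4.3.3; trended variance, two-sided, Benjamini-Hochberg over all genes tested) between the 3 libraries of each of 2 groups. Genes entered a test where either group had 5 CPM in each of its 3 libraries, and were called at an FDR of 0.05 and a 2-fold change. A log2 change on this scale understates that of genes with low CPM. The interaction with R90W was fitted to 4 groups. The scripts were tested on simulated data. Count tests were not run, since too few low values were left to check that reads recovered from CPM are whole.

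Named genes were the 10 largest falls and rises with groups apart, members of gene lists (the most abundant and the most changed), the 6 held genes and the 6 at the homozygous level with the largest change against WT in each direction, genes that turned, the 5 largest interactions each way, the genes nearest to the fold limit, and *Crx*; a few items that these rules select are not reported here. The lists came from general knowledge, except that of the visual cycle and the rod-enriched and cone-enriched lists, which are the study's. Members and lists were chosen with earlier results of these data known. The 20 genes whose symbols a spreadsheet had turned into dates were tested and not named. The letters A to C did not pair libraries of the 2 genotypes (correlations of deviations 0.164, -0.053 and 0.088). Promoter sequences came from RefSeq (GRCm38.p6), which matched 8560 of the 12061 genes tested. Exon overlaps were read from the mm9 annotation, and a gene that overlaps another may hold reads of both. Other value offsets, filters, scalings, fits and left-out libraries were tried.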

Additional observations from a re-analysis of the deposited data

Results flagged for a closer look

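The effect of a second mutant allele differed between the E168d2 and the R90W series by a test of the difference itself, the interaction term in limma, and the largest differences reported here are given. On the log2 scale the change with E168d2 dose minus that with R90W dose was -7.60 (SE 0.23, FDR 1.86e-11) for *Cnga1*, -5.31 for *Cngb1*, -5.26 for *BC016201* and -3.70 for *Rdh12*. In *BC016201* the means were 33.6 and 0.533 CPM in E168d2/+ and E168d2/d2 and 69.3 and 48.3 CPM in R90W/+ and R90W/W. On the other side the difference was 7.51 (SE 0.57, FDR 3.01e-07) for *Krt73*, 4.23 for *Mrc2*, 3.58 for *Serping1*, 3.01 for *A930009A15Rik* and 2.97 for *Nhlh1*. For each of these genes the FDR was 1.02e-06 or less, and most of them passed the 5 CPM filter only through the groups where they are high.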

How the results depend on the processing

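Under the other settings tried, between 158 and 200 genes were lower and between 95 and 116 higher in E168d2/d2 than in E168d2/+. No named gene that was called changed direction. Changes of sign in genes that were not called were not counted. Of 944 values for genes named by rules other than list membership, 918 kept their side of the thresholds under these settings. The 26 others were of *Vax2os1*, *Dusp1*, *Klhl18*, *Trmt61b*, *Dnahc9*, *Arid3c* and *Rtn4rl2*. Among members named here from the lists, *Rom1* passed the fold limit without E168d2/+ replicate C (-1.04) and *Prom1* with median scaling (-1.003). *Gnat1*, *Rgs9* and *Rgs9bp* lost their calls with replicate A as the only E168d2/d2 library. With no fold limit, 2025 genes differed, and 875 with E168d2/d2 replicates B and C left out together; the range was 1290 (without E168d2/d2 replicate C) to 2419 (without E168d2/+ replicate C) when 1 library was left out. With 1 library left in E168d2/d2, that library was assumed to vary like E168d2/+. Why fewer genes differed with both replicates left out was not tested. Leaving out 1 library gave 158 to 193 lower and 109 to 116 higher genes, 65 to 104 lower held, 41 to 50 lower graded and 5 to 8 lower genes at the homozygous level, 43 to 65 higher held, 7 to 9 higher graded and 7 to 11 higher genes at the homozygous level, 5 to 8 genes that turned and 167 to 182 interactions. With the letter as a replicate block the called genes between E168d2/d2 and E168d2/+ were the same, 106 of them higher, and 70 lower genes were held; the letters did not pair the libraries. Scaling to the median log-ratio moved the median of all genes from 0.05 to 0.0048 and gave 179 lower and 95 higher genes. Rod phototransduction held 15 to 19 lower and 0 higher genes over the settings. The planned edgeR and DESeq2 alternatives on recovered reads were not run. Genes under 5 CPM in both genotypes, 3 cone phototransduction genes among them, were not tested at this depth.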

Other observations

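In *Alpl*, the alkaline phosphatase gene, the mean was 90.4 CPM in WT, 7.61 CPM in E168d2/+ and 8.80 CPM in E168d2/d2. It met none of the limits for the place of the heterozygote, and it was picked after its values were seen.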
